A study of Mus musculus with 8 samples.

Results

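White fat cells in whole skin of newborn mice were followed through 10 genes that mark them: Adipoq, Fabp4, Plin1, Cidec, Pparg, Lpl, Lep, Cebpa, Cfd and Retn. All probe sets whose only annotated symbol was 1 of these genes were taken, which gave 12 of the 22690 probe sets of the array and covered 8 of the 10 genes. Fabp4 had 4 probe sets, Lpl had 2 and the other 6 genes had 1 each; Plin1 and Cfd were not analysed here. Most of these genes scored lowest in skin that lacked p53 alone. Most of them, Cebpa apart, had mean scores above control in skin that lacked pRb, whether or not p53 was also lost. No member passed the test adjusted over all probe sets in any of the 7 comparisons.

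The study hybridized 8 oligonucleotide microarrays with RNA of newborn FVB mice, an inbred strain, taken from whole skin, and each array held a pool from 3 animals. The genotypes were control, pRb-/-;p53+/+ (here pRb_null), pRb+/+;p53-/- (p53_null) and pRb-/-;p53-/- (double_null), with 2 arrays each. The series title places the inactivation in stratified epithelia and calls it somatic; the driver of recombination, the alleles that the control animals carried and whether fat cells of the skin were recombined are not given in the sources used here. Whether arrays of the same genotype came from different pools is not given either, and the p-values below rest on the spread between arrays alone, part or all of which may be technical.

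Each deposited value was a standardized score: every one of the 22690 probe sets had mean 0 and SD 1 over the 8 arrays (within 1e-06). A score says where an array stands among the 8 arrays for that probe set, in units of the probe set's own SD, so it holds no expression level and no fold change. The presence of skin or fat RNA could therefore not be checked from levels, and scores of different genes compare patterns and not amounts. Over all probe sets, the r between the arrays of 1 genotype was 0.12 to 0.34, above that of any array with those of other genotypes. The number of arrays limits the precision: an exact permutation test of 2 arrays against 2 cannot go below a two-sided p of 0.333. Differences were tested with limma's linear model over all probe sets, without variance moderation, and p-values were adjusted by the Benjamini-Hochberg method over the 22690 probe sets. Shares of all probe sets were counted for that test only, and not for the moderated test or the other settings given below.

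White fat forms a layer in the lower dermis of the mouse around birth, beneath the growing hair follicles. Its cells arise from fibroblast-like precursors under the nuclear receptor PPARγ (Pparg) and the transcription factor C/EBPα (Cebpa), which switch on one another and the genes of lipid storage. Mature cells take fatty acids from blood lipoproteins with lipoprotein lipase (Lpl), carry them with a fatty acid-binding protein (Fabp4), store them in a large droplet kept by proteins such as Cidec, and secrete the hormones adiponectin (Adipoq), leptin (Lep) and resistin (Retn). In RNA of whole skin, fewer fat cells and less RNA per cell cannot be told apart.

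Averaged over the 8 genes, the score was −0.21 and 0.08 in the control arrays, 0.52 and 0.76 in those of pRb_null, −1.21 and −1.34 in those of p53_null and 0.91 and 0.50 in those of double_null. The p53_null arrays lay far below all others, and both arrays of pRb_null and of double_null lay above both control arrays. All 8 genes scored below 0 in both p53_null arrays. In both control arrays the genes were mixed, with 2 and 4 of 8 above 0. Both p53_null arrays were the lowest of the 8 for 10 of the 12 member probe sets, in 7 genes, where this held for 7.78% of all probe sets.

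**Figure D1:**
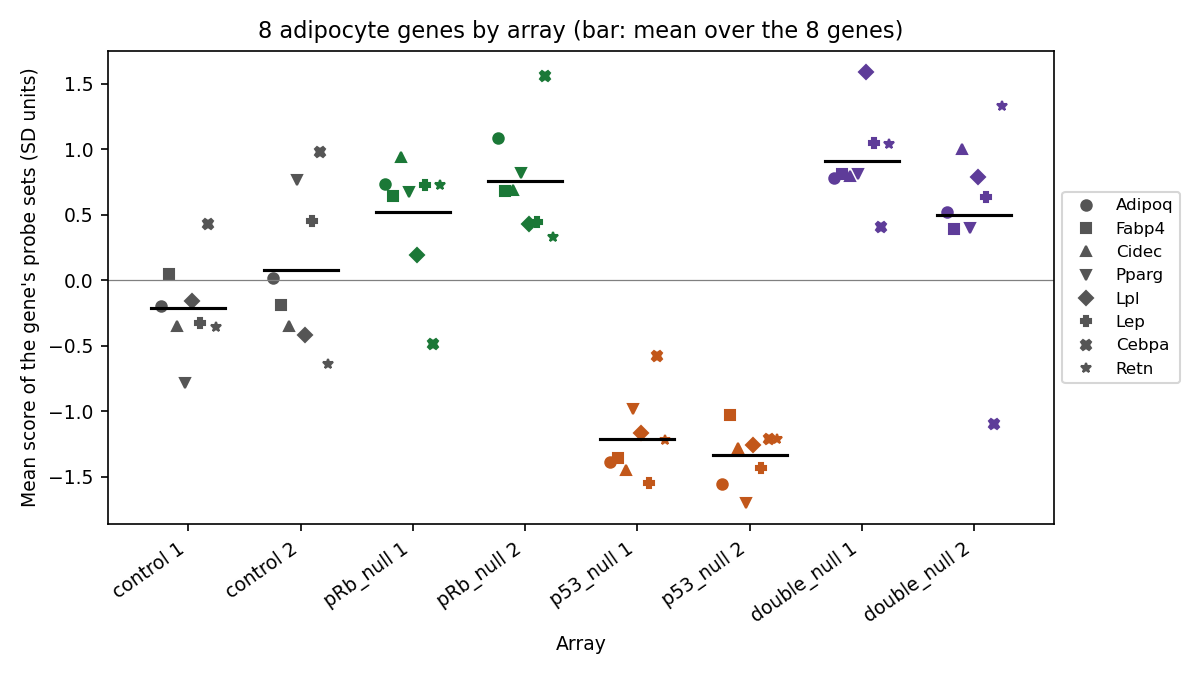
Each point is the mean standardized score (in SD units, y axis) over the probe sets of a gene on 1 array (x axis), with a marker for each of the 8 adipocyte genes, and the black bar is the mean over the 8 genes. The bars of the p53_null arrays are at −1.21 and −1.34, below the bars of all other arrays, and Cebpa in double_null replicate 2, at −1.10, stands apart from the other 7 genes of that array.

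The transcription factors of the fat cell came first in order of role. Pparg, the nuclear receptor that drives fat cell differentiation, scored −0.78 and 0.77 on the control arrays, 0.67 and 0.82 on those of pRb_null, −0.98 and −1.70 on those of p53_null and 0.81 and 0.40 on those of double_null. Its 2 control arrays differed by more than the control and pRb_null means did, and p53_null was the only genotype whose arrays did not overlap the control arrays. Cebpa, its partner factor, which is also made in suprabasal keratinocytes, scored 0.43 and 0.98 on the control arrays, −0.49 and 1.56 on those of pRb_null, −0.58 and −1.21 on those of p53_null and 0.41 and −1.10 on those of double_null. The 2 arrays of pRb_null and those of double_null disagreed in sign for Cebpa, and the double_null and p53_null arrays overlapped. Cebpa was the member least like the others: its correlation over the 8 arrays with the mean of the other 7 genes was 0.39, where the other 7 genes had 0.85 (Retn) to 0.99 (Adipoq).

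Lpl, the enzyme that frees fatty acids from lipoproteins at the capillary wall, had 2 probe sets. The first (1415904_at) scored −0.03 and 0.06 on the control arrays, −0.23 and 0.34 on those of pRb_null, −1.17 and −1.45 on those of p53_null and 1.60 and 0.89 on those of double_null. The second (1431056_a_at) scored −0.29 and −0.90 on the control arrays, 0.62 and 0.53 on those of pRb_null, −1.16 and −1.07 on those of p53_null and 1.58 and 0.69 on those of double_null. Both placed p53_null lowest and double_null highest of all groups with no overlap to any other group, and they correlated at 0.86 over the 8 arrays. They differed in pRb_null, which overlapped control by the first and lay above it by the second.

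Fabp4, the fatty acid carrier of the fat cell, also found in capillary endothelium and macrophages, had 4 probe sets that did not all agree. The first (1417023_a_at) scored −0.03 and 0.14 on the control arrays, 0.82 and 0.53 on those of pRb_null, −1.76 and −1.27 on those of p53_null and 0.99 and 0.57 on those of double_null. The second (1424155_at) scored 0.47 and 0.01 on the control arrays, 0.76 and 0.78 on those of pRb_null, −1.44 and −1.59 on those of p53_null and 1.00 and 0.01 on those of double_null. These correlated at 0.94, and in both the p53_null arrays were lowest by a wide gap. The third (1451263_a_at) scored 0.79 and −0.30 on the control arrays, −0.64 and 1.16 on those of pRb_null, −0.85 and −1.48 on those of p53_null and 1.27 and 0.04 on those of double_null. The fourth (1425809_at) scored −1.05 and −0.59 on the control arrays, 1.62 and 0.26 on those of pRb_null, −1.38 and 0.23 on those of p53_null and −0.02 and 0.94 on those of double_null. In these last 2 probe sets the arrays of 1 genotype lay far apart, their correlation with each other was −0.08, and the fourth was the only member in which a p53_null array lay above a control array. Both p53_null arrays were the lowest of the 8 in the first 3 probe sets and not in the fourth. Both double_null arrays lay above both control arrays in the first and the fourth, so the gene's mean over the 4 probe sets rests on probe sets that differ.

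Cidec, a protein that fuses lipid droplets into the single large droplet of white fat, scored −0.35 and −0.35 on the control arrays, 0.94 and 0.69 on those of pRb_null, −1.45 and −1.28 on those of p53_null and 0.79 and 1.01 on those of double_null. Its arrays of 1 genotype lay closest together of all members (SE of a difference 0.13). The 3 mutant genotypes each lay clear of control, p53_null below it and the others above it, while pRb_null and double_null overlapped.

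Both p53_null arrays were also the lowest of the 8 for each of the 3 hormone genes. Adipoq, which encodes adiponectin, scored −0.19 and 0.02 on the control arrays, 0.74 and 1.09 on those of pRb_null, −1.39 and −1.56 on those of p53_null and 0.78 and 0.52 on those of double_null. Lep, which encodes leptin, scored −0.33 and 0.46 on the control arrays, 0.72 and 0.44 on those of pRb_null, −1.55 and −1.44 on those of p53_null and 1.05 and 0.64 on those of double_null. Retn, which encodes resistin, scored −0.35 and −0.64 on the control arrays, 0.73 and 0.33 on those of pRb_null, −1.22 and −1.22 on those of p53_null and 1.04 and 1.33 on those of double_null. For Adipoq and Retn every pRb_null and double_null array lay above both control arrays, whereas for Lep pRb_null overlapped control. Retn was higher in both double_null arrays than in either pRb_null array.

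**Figure D2:**
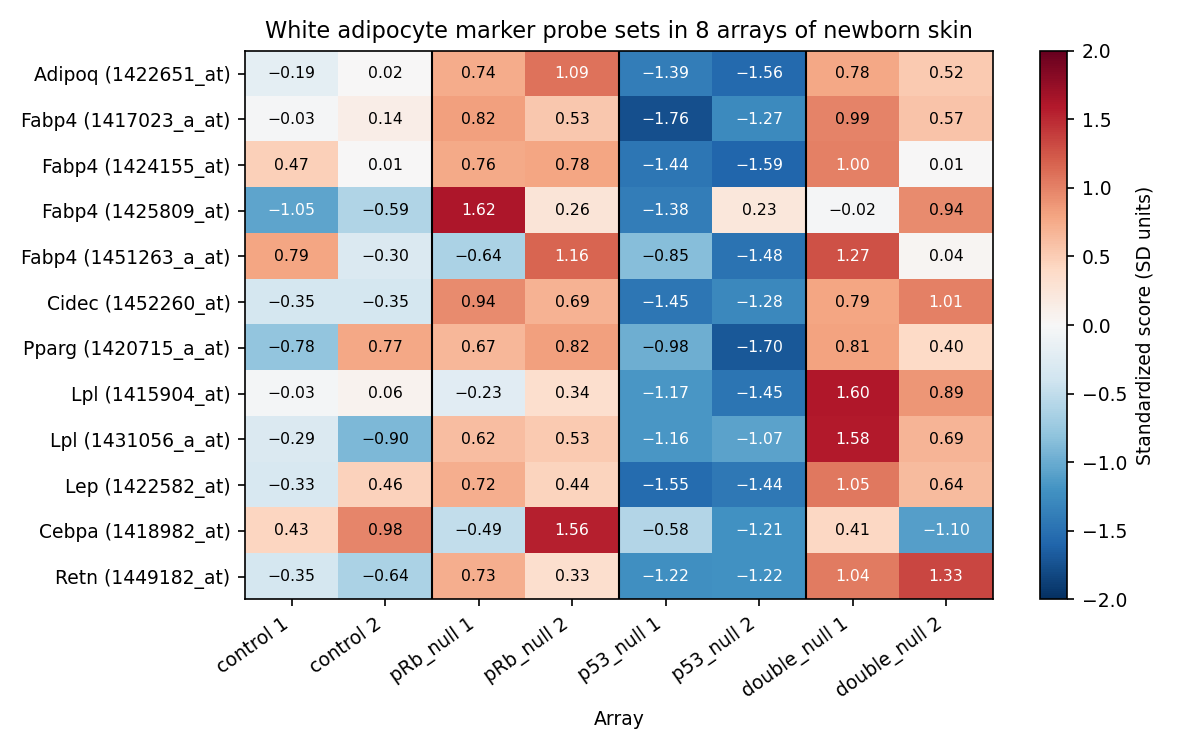
Each cell is the standardized score (in SD units, colour and printed value) of 1 member probe set (rows) on 1 array (columns), and black lines separate the 4 genotypes. The p53_null columns are the lowest in 10 of 12 rows, and the exceptions are Cebpa and Fabp4 by 1425809_at.

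Like most of the members, these hormone genes varied together over the arrays, and the bases just before their transcription starts are shown. Of the 8 genes with scores, 6 had starts in the RefSeq promoter table of build GRCm38.p6, with 9 windows of 250 bases upstream in all. The windows of the 3 hormone genes, each on the plus strand and read 5′ to 3′, are given in lower case, with matches to 4 motifs on either strand in capitals.
Adipoq, chr16:23146286-23146535: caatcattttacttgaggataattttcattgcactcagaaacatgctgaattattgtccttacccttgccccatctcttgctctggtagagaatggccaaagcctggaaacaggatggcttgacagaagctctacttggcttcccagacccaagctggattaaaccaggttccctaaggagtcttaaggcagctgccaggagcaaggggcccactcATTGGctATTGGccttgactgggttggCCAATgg
Lep, chr6:29059971-29060220: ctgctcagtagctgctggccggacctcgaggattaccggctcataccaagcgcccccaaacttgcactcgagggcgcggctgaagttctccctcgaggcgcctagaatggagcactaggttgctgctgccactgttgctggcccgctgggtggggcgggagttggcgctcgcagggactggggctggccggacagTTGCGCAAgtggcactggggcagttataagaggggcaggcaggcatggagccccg
Retn, chr8:3655520-3655769: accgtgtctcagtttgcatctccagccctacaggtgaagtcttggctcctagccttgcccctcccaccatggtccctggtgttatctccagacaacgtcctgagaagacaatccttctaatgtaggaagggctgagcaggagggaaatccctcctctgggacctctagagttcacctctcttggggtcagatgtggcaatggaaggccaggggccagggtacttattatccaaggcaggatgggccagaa

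The motifs searched were the C/EBP core TTGCNNAA, the CCAAT box CCAAT, the TATA box TATAAA and the PPAR response element, where N is any base. The Lep window held TTGCGCAA from 55 to 48 bases before the start, which reads as the C/EBP core on both strands. The Adipoq window held the CCAAT box at 3 places, from 34 to 30 and from 27 to 23 bases before the start on the opposite strand (ATTGG) and from 7 to 3 on the strand given. The Retn window held none of the 4 motifs. Among all 32851 windows of the table, 9.56% held the C/EBP core, 33.8% the CCAAT box, 12.4% the TATA box and 0.0335% the PPAR response element. Among the 9 windows of these genes, 3 held the C/EBP core, 3 the CCAAT box, 2 the TATA box and 0 the PPAR response element, and a match is a description of letters and not a binding site.

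The first question was what loss of p53 alone does to these genes. Adipocyte markers had lower scores in p53_null than in control throughout the 8 genes, and 45.7% of all probe sets were higher. The median difference over the genes was −1.23 (all probe sets: −0.15). The differences of genes ranged from −1.60 ± 0.95 (Cebpa, adjusted p = 0.51, limma) to −0.72 ± 0.20 (Retn, adjusted p = 0.26, limma). Of the 12 member probe sets, 0 were called at an adjusted p under 0.05 in limma's test without moderation, where 0.119% of all probe sets were called. At an unadjusted p under 0.05, 7 were lower and 0 higher, where 7.23% of all probe sets were lower and 7.38% higher. Both p53_null arrays lay below both control arrays in 11 of 12, where this held for 28.9% of all probe sets, and above them in 0 (23.8% of all). The difference was −1.38 ± 0.18 (SE) for Adipoq and −1.02 ± 0.13 for Cidec, each with limma's adjusted p of 0.11. It was −1.57 ± 0.26 for Fabp4 by 1417023_a_at (adjusted p = 0.15, limma), −1.56 ± 0.33 for Lep (adjusted p = 0.20, limma) and −1.33 ± 0.34 for Lpl by 1415904_at (adjusted p = 0.24, limma). Pparg differed by −1.33 ± 0.63, with limma's adjusted p of 0.43, and Fabp4 by 1425809_at was the only member at or above 0, at 0.25 ± 0.83. The count at an unadjusted p under 0.05 was 4 without p53_null replicate 2, and 1 in limma's moderated test, which also called 0.

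Loss of pRb alone was compared with control next. In pRb_null 7 of the 8 genes had higher scores, as had 52.3% of all probe sets. The median over the genes was 0.74 (all probe sets: 0.07), and Cebpa was at −0.17 ± 0.95. In limma's test 0 of 12 member probe sets were called, as were 0% of all probe sets. At an unadjusted p under 0.05, 4 were higher and 0 lower, where 6.44% of all probe sets were higher and 4.21% lower. The groups did not overlap in 7 of 12, all with pRb_null above control, where this held for 22.7% of all probe sets and the opposite for 18.4%. The 4 were Cidec (1.17 ± 0.13, adjusted p = 0.18, limma), Adipoq (1.00 ± 0.18, adjusted p = 0.26, limma), Retn (1.02 ± 0.20, adjusted p = 0.28, limma) and Lpl by 1431056_a_at (1.16 ± 0.39, adjusted p = 0.44, limma). The other probe set of Lpl differed by 0.04 ± 0.34, and its sign changed when array medians were set to 0 (−0.081) or quantile normalization was used (−0.011). The moderated test called 0 and gave 1 at an unadjusted p under 0.05.

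Loss of both proteins was compared with the same control arrays, which all comparisons with control share. Scores were higher in double_null for 7 of the 8 genes, as for 49.9% of all probe sets. The median over the genes was 0.76 (all probe sets: −0.01). The largest differences were those of Retn (1.68 ± 0.20, adjusted p = 0.066, limma) and of Lpl by 1431056_a_at (1.73 ± 0.39, adjusted p = 0.15, limma). Cidec differed by 1.25 ± 0.13, with limma's adjusted p of 0.057, and Adipoq by 0.74 ± 0.18, with limma's adjusted p of 0.17. Lep was at 0.78 ± 0.33 (adjusted p = 0.32, limma) and Pparg at 0.61 ± 0.63 (adjusted p = 0.65, limma). Cebpa was at −1.05 ± 0.95, with both double_null arrays below both control arrays. In limma's test 0 of 12 were called, where 0.846% of all probe sets were. At an unadjusted p under 0.05, 6 were higher and 0 lower, where 8.77% of all probe sets were higher and 9.91% lower. The groups did not overlap in 8 with double_null above control (25.1% of all probe sets) and in 1 with double_null below (26.1%). With array medians set to 0, 2 were called, Cidec (1.30, adjusted p = 0.029, limma) and Retn (1.73, adjusted p = 0.048, limma). The share of all probe sets called at that setting was not counted. The count at an unadjusted p under 0.05 was 3 without control replicate 1 or without double_null replicate 1, and 2 in the moderated test, which called 0. The median was 1.21 without control replicate 2.

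**Figure D3:**
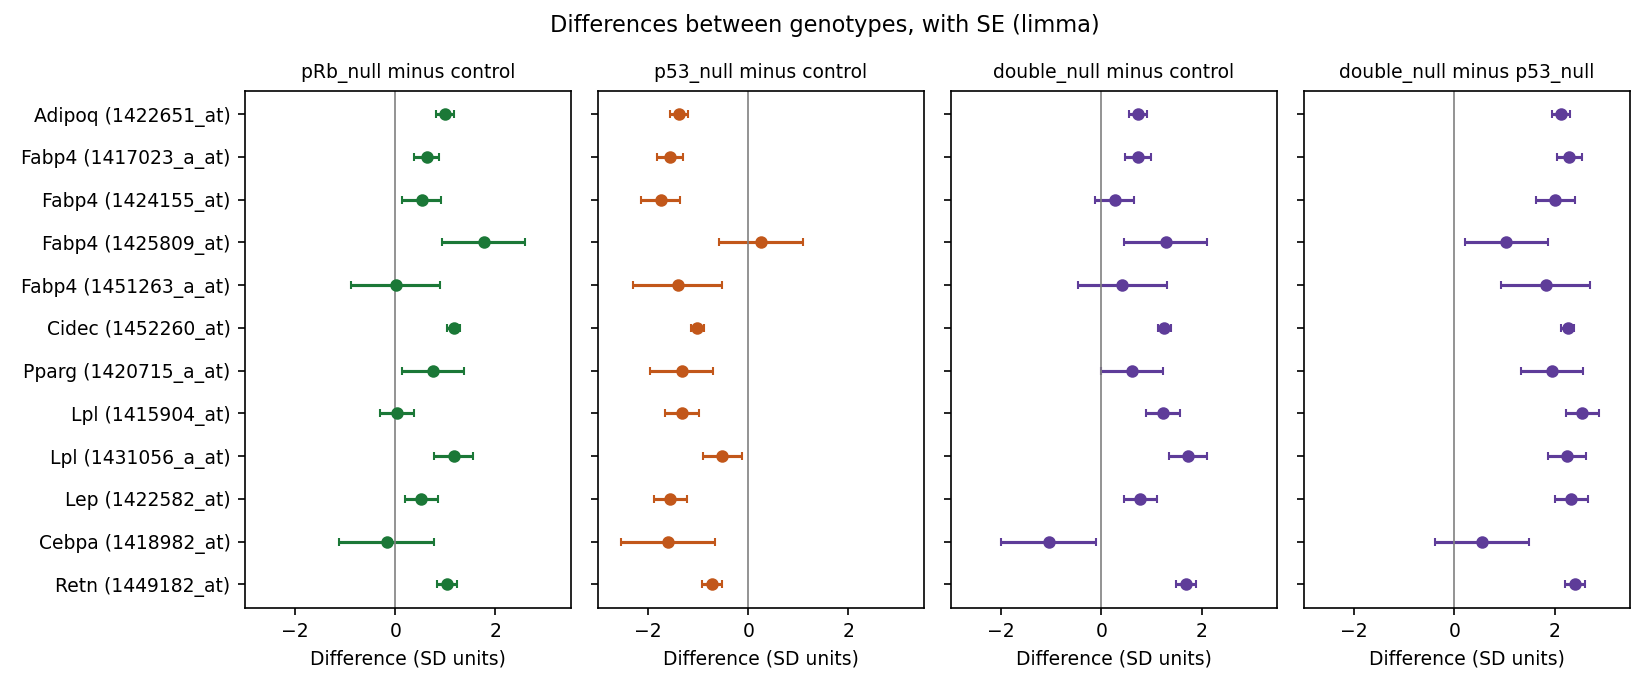
Points are the differences in score (in SD units, x axis) of the 12 member probe sets (y axis) for 4 comparisons, and bars are the SE from limma's fit. Differences of p53_null from control lie left of 0 in 11 of 12 probe sets, and those of double_null from p53_null lie right of 0 in 12 of 12.

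The largest contrasts among these genes were those between p53_null and the genotypes that lack pRb. Set against p53_null, double_null scored higher in all 8 genes, where 51% of all probe sets were higher. The median over the genes was 2.20 (all probe sets: 0.03). Retn differed by 2.41 ± 0.20 and Adipoq by 2.12 ± 0.18, each with limma's adjusted p of 0.11. Cidec differed by 2.27 ± 0.13, with limma's adjusted p of 0.068. Lpl by 1415904_at differed by 2.56 ± 0.34 (adjusted p = 0.17, limma), and Lep by 2.34 ± 0.33 (adjusted p = 0.18, limma). Of the 12 member probe sets, 0 were called by limma, where 0.0353% of all were. At an unadjusted p under 0.05, 9 were higher and 0 lower, where 5.99% and 5.91% of all were. Both double_null arrays lay above both p53_null arrays in 10, where this held for 24.3% of all and the opposite for 25.2%. The moderated test called 0 and gave 10 at an unadjusted p under 0.05, with no share of all probe sets counted for it. With array medians set to 0, Cidec was called (2.21, adjusted p = 0.040, limma).

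Set directly against pRb_null, p53_null scored lower in all 8 genes, where 43.4% of all probe sets were higher. The median was −1.97 (all probe sets: −0.26). The differences ran from −2.39 ± 0.18 for Adipoq (adjusted p = 0.079, limma) to −1.43 ± 0.95 for Cebpa. Cidec differed by −2.18 ± 0.13, with limma's adjusted p of 0.072. Again 0 of 12 were called, where 0.0573% of all probe sets were. At an unadjusted p under 0.05, 9 were lower (9.41% of all) and 0 higher (6.81% of all), and both p53_null arrays lay below both pRb_null arrays in all 12 (31.8% of all, with 22.6% the opposite). The moderated test called 0 and gave 8 at an unadjusted p under 0.05, with no share of all probe sets counted for it. With array medians set to 0, Cidec was called (−1.96, adjusted p = 0.042, limma).

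Double_null and pRb_null differed less. The median difference was 0.01 over the 8 genes (all probe sets: −0.15), with 4 genes higher, where 46.5% of all probe sets were. Lpl by 1415904_at (1.19 ± 0.34, adjusted p = 0.21, limma) and Retn (0.66 ± 0.20, adjusted p = 0.23, limma) were higher at an unadjusted p under 0.05, which were 2 of 12 member probe sets where 7.71% of all were. Neither was called, where 0.405% of all probe sets were, and 0 were lower at that bound (10.9% of all). Both double_null arrays lay above both pRb_null arrays in 3 (22.1% of all) and below in 0 (28.1% of all). The count of 2 became 1 without either control array, either pRb_null array, either p53_null array or double_null replicate 1, and 0 in the moderated test and with the replicate number as a block. Adipoq differed by −0.26 ± 0.18 and Cidec by 0.08 ± 0.13.

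Whether p53 loss shifted these genes differently with and without pRb was tested as an interaction, the difference of double_null from pRb_null minus that of p53_null from control. It was above 0 in all 8 genes and in 49.1% of all probe sets, with a median over the genes of 1.16 (all probe sets: −0.04). It was 1.10 ± 0.18 for Cidec (adjusted p = 0.28, limma), 1.12 ± 0.26 for Adipoq (adjusted p = 0.34, limma) and 1.82 ± 0.47 for Lep (adjusted p = 0.37, limma). In limma's test 0 of 12 member probe sets were called, as were 0% of all. At an unadjusted p under 0.05, 6 were above 0 and 0 below, where 4.46% of all were above and 6.01% below. The moderated test called 0 and gave 1 at that bound.

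Other genes of fat metabolism were described through 5 lists, counted by probe set and by gene for medians, after averaging the probe sets of each gene. Here and below, a list gene counted as on the array only if a probe set had it as its only annotated symbol. The list of lipid droplet and lipolysis genes had 9 of its 11 genes on the array. Its mean score was −1.29 and −1.01 in p53_null, −0.11 and 0.05 in control, 0.43 and 0.36 in pRb_null and 0.93 and 0.65 in double_null, so that the 4 genotypes did not overlap. In p53_null against control its median difference was −0.99, with an unadjusted p under 0.05 in 8 of 16 probe sets, all of them lower, where 7.23% of all probe sets were lower and 7.38% higher. In double_null against control its median was 0.84, with 5 higher and 1 lower at that bound, where 8.77% and 9.91% of all probe sets were. Pnpla2, the lipase that starts triglyceride breakdown, rose in double_null against control by 2.14 ± 0.11 (adjusted p = 0.028, limma), while its other probe set was at −0.45 ± 1.14. Lipe, the hormone-sensitive lipase, differed by 1.64 ± 0.16 there (adjusted p = 0.055, limma). Mgll, the monoglyceride lipase, was at −0.72 ± 0.23 by the probe set with the smallest p, and its other 3 ran from −0.52 to 1.17. The droplet coat protein Plin2 was at −0.21 ± 0.46. In p53_null the same probe sets of Mgll and Plin2 were at −2.26 and −2.07 against control, also without being called.

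Fatty acid and triglyceride synthesis genes, 14 of 15 on the array, had a median difference of −0.35 in p53_null, 0.42 in pRb_null and 0.82 in double_null, each against control. In double_null, 13 of 31 probe sets had an unadjusted p under 0.05 with higher scores and 3 with lower, where 8.77% and 9.91% of all probe sets had. Of the 31, 1 was called in each direction, where 0.846% of all probe sets were called. Me1, the malic enzyme that supplies NADPH for fatty acid synthesis, rose by 2.05 ± 0.16 (adjusted p = 0.038, limma), and it also rose in double_null against pRb_null by 2.13 ± 0.16 (adjusted p = 0.049, limma). Unlike most white fat genes, Me1 was higher in p53_null than in control (adjusted p = 0.093, limma). In pRb_null against control it was at −0.08 ± 0.16, with its other probe set at 0.90 ± 0.62. Elovl6, a fatty acid elongase, fell by 2.42 in double_null against control (adjusted p = 0.035, limma), and its other probe set was at −1.86 without being called. Thrsp, a regulator of lipogenesis, was at 2.14 ± 0.26 (adjusted p = 0.069, limma). The desaturase Scd2 was at −2.19 ± 0.54 by 1 probe set, but at 0.77 and 1.49 by its others. Each of these calls of Pnpla2, Me1 and Elovl6 was lost when any 1 of the 8 arrays was left out, which also left fewer residual degrees of freedom. Such a loss therefore does not tell whether a call rested on 1 array.

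Genes of fatty acid and glucose uptake, 9 of 12 on the array, had medians of −0.08 in p53_null and 1.28 in double_null against control. The insulin-responsive glucose transporter Slc2a4 was at 1.92 ± 0.25 in p53_null without being called, with its other probe set at 0.29 ± 0.98. In double_null Slc2a4 was at 2.47 ± 0.25 (adjusted p = 0.057, limma, and 0.038 with array medians set to 0). The fatty acid transporter Cd36 was at 1.91 ± 0.26 (adjusted p = 0.079, limma). The lipoprotein lipase inhibitor Angptl4 was at −0.63 ± 0.41 and the lipoprotein receptor Vldlr at −1.25 ± 1.02, with 1 other probe set of Vldlr at 1.23. Adipogenic transcription regulators, all 12 on the array, had medians of −0.48 and 0.38. The lipid-sensing receptor Nr1h3 was at 1.66 ± 0.39 and the early adipogenic factor Cebpd at 1.46 ± 0.38 in double_null, with the other probe set of Cebpd at 0.047. The early factor Cebpb was at −1.86 ± 0.34. Klf5 was at −1.12 by 1 probe set and at 2.18 by the other. Receptors of the fat hormones and genes of the alternative complement pathway, 6 of 8 on the array, had medians of 0.06 and 0.78, with the complement regulator Cfp at 2.28 ± 0.48. The adiponectin receptor Adipor1 was at 1.96 ± 0.80, with its other probe sets at −0.34 and 0.83. The leptin receptor Lepr was at −0.64 ± 0.71, with its others at 1.36 and 0.52, and complement factor Cfb at −0.41 ± 0.93. In these last 3 lists 0 probe sets were called by limma against control in p53_null or double_null.

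Markers of other cells were summarised in the same way, and their part in the result was not tested. Brown fat markers, 7 of 8 on the array, had mean scores from −0.37 to 0.41 with medians of −0.24 in p53_null and −0.18 in double_null against control. In double_null against control 3 of the 7 genes were higher, where 49.9% of all probe sets were. Elovl3, another gene of this list, was at −2.18 ± 0.29 there without being called. Ucp1, the uncoupling protein of brown fat, scored −0.78 and −0.74 on the control arrays, −1.01 and −1.06 on those of pRb_null, 0.53 and 0.59 on those of p53_null and 1.35 and 1.12 on those of double_null. Unlike the white fat genes, it was higher in p53_null than in control, without being called (1.32), and it rose in double_null against control (1.99 ± 0.09, adjusted p = 0.024, limma) and against pRb_null (2.27 ± 0.09, adjusted p = 0.028, limma). These calls too were lost with any array left out. Preadipocyte markers, all 7 on the array, scored 0.72 and 0.56 in p53_null, above the range of −0.69 to 0.19 in the other arrays, with a median of 0.96 against control. The list was split there, with 5 of the 7 genes higher. At an unadjusted p under 0.05, 3 of its 10 probe sets were higher and 1 lower, where 7.38% and 7.23% of all were.

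Endothelium, whose cells also make Fabp4, had a median of −0.06 in p53_null and 1.42 in double_null against control, with mean scores of 0.97 and 0.37 in double_null and from −0.63 to 0.13 elsewhere. Macrophage markers had 0.46 and 1.55, and mast cell markers 1.87 and 1.20. Skeletal muscle markers scored 1.05 and 1.06 in pRb_null and from −0.75 to 0.06 elsewhere, with a median of 1.79 in pRb_null against control. By 1 of its 3 probe sets the muscle myosin Myh1 fell by 1.87 in double_null (adjusted p = 0.039, limma) and by 2.44 in p53_null (adjusted p = 0.041, limma), each against pRb_null, and both calls were lost with any 1 array left out. Sebaceous gland markers, 4 of 8 on the array, had −0.33 in p53_null and −1.01 in double_null, dermal fibroblast markers 0.48 and 0.64, and keratinocyte markers −0.46 and 0.13. The 64 control probe sets of the array scored lowest in the control arrays (−0.69 and −0.37, elsewhere from −0.04 to 0.61), with medians of 0.87 in pRb_null, 0.87 in p53_null and 0.71 in double_null against control. Their part in the higher scores of pRb_null and double_null against control was not tested, and in p53_null their median was above 0 while that of the adipocyte genes was below it. Scores hold no level, so which of these markers were near 0 cannot be given.

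**Figure D4:**
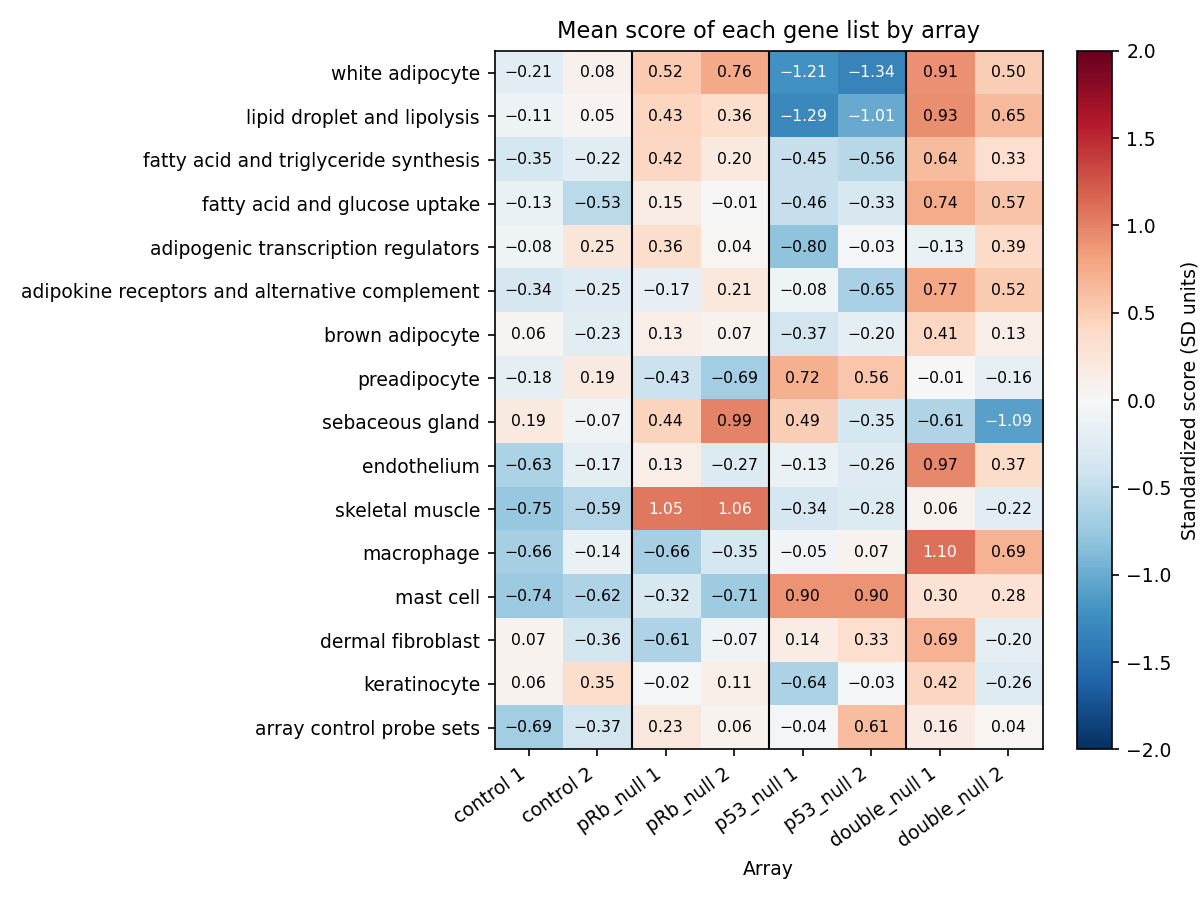
Each cell is the mean standardized score (in SD units, colour and printed value) of a gene list (rows) on 1 array (columns), and black lines separate the 4 genotypes. White adipocyte and lipid droplet lists are the lowest in the p53_null columns (−1.21, −1.34, −1.29 and −1.01), while the mast cell list is at 0.90 and 0.90 there.

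The genes whose pattern was most like that of the adipocyte markers were found by the correlation of single probe sets with the mean of the 8 genes over the 8 arrays. Among 20393 probe sets with 1 symbol, 80 had r of 0.9 or more (0.392%), of which 9 belonged to the lists above. A further 6 were member probe sets, which are themselves part of that mean, and against the mean of the other 7 genes 5 members had r of 0.9 or more. The 10 genes closest outside the members and lists were Krt12 (r = 0.98), Slc7a10 (0.98), H2-K1 (0.98), Mmd (0.97), Ccne1 (0.97), Ifi27l2a (0.97), Pou2f3 (0.97), Nabp1 (0.96), Ephx2 (0.96) and Eml5 (0.96). Their p53_null means lay between −1.54 and −1.33, which follows from choosing them by that correlation. The other probe sets of Mmd (0.93) and Krt12 (0.90) were also close, whereas those of H2-K1 ranged from 0.44 to 0.91, those of Nabp1 from 0.49 to 0.58 and those of Eml5 from −0.31 to 0.63. With 8 arrays in 4 groups, an r rests on few independent points.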

How the data were processed

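Skin RNA was measured on 8 arrays, 2 for each of 4 genotypes, grouped by their labels. The submitters' processing notes name RMA, without a version. The deposited values are scores between −2.43 and 2.45, standardized in each of the 22690 rows to mean 0 and SD 1 (tolerance 1e-06), and whether logarithms were taken first was not given in the sources used here. Standardizing removes levels, gives every probe set the same total variance and leaves no basis for a filter on dim probes.

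Symbols came from the platform annotation (20393 probe sets with 1 symbol, 691 with several, 1606 with none). All 12 member probe sets matched RefSeq (GRCm38.p6) by Entrez number. Members and lists were chosen with earlier results of these data known. A gene's value is the mean over its probe sets. limma 3.58.1 in R 4.3.3 was fitted to the 8 arrays together, as 4 group means that leave 4 residual degrees of freedom, without moderation, since standardized rows tie variances together (the moderated prior had 39.6 degrees of freedom). Tested on simulated data for double_null against control (22690 probe sets), it recovered 50% of changes of 10 times the within-group SD and 100% of changes of 20 times. It also made 8 false calls. The simulated probe sets varied independently and only double_null was changed, so these rates need not hold for these data. Named genes were all member probe sets, list genes called in any comparison and the 10 genes most like the member mean. Gpam and Rxra were named for their higher scores in p53_null against control. Also named were the 2 list genes with the smallest p per direction in double_null against control in each list. For the lists of other cells the uncalled ones, except Elovl3, are left out of the text. Replicate numbers were not taken to pair the arrays. Alternatives were moderation, quantile normalization, array medians set to 0, a replicate block, only the groups compared, only probe sets with 1 symbol, a gene's probe sets counted singly or by 1 probe set, and leaving out each array. Figures used Python 3.11.15 and matplotlib 3.10.9.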

Additional observations from a re-analysis of the deposited data

Results flagged for a closer look

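For 3 member probe sets p53_null lay below control and double_null above pRb_null in every array. The difference with p53 loss thus had opposite directions in the 2 pRb backgrounds. Of all probe sets, 28.9% met the first condition and 22.1% the second, and the share that met both was not counted. The interaction was 2.52 for Lpl by 1415904_at (adjusted p = 0.31, limma), 1.08 for Lpl by 1431056_a_at (adjusted p = 0.58, limma) and 1.38 for Retn by 1449182_at (adjusted p = 0.32, limma). None of these passed the test of the difference itself. Groups of 2 arrays are too small for a check of outlying arrays.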

How the results depend on the processing

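The number of member probe sets called stayed at 0 in all 7 comparisons when any 1 array was left out, and under every other setting except array medians set to 0. That setting called 2 in double_null against control and 1 each in double_null against p53_null and in p53_null against pRb_null, and it moved the median of the last comparison to −1.74. Counts at an unadjusted p under 0.05 moved more. In pRb_null against control the count of 4 became 1 in the moderated test and 2 with quantile normalization or with only the groups compared. In p53_null against control the count of 7 became 1 in the moderated test. In double_null against control the count of 6 became 2 in the moderated test and 3 with quantile normalization or only the groups compared. In double_null against pRb_null the count of 2 became 1 with quantile normalization and 0 in the moderated test and with only the groups compared. The interaction count of 6 became 1 in the moderated test. Shares of all probe sets under these other settings were not counted, so none of these counts has a background beside it. A fit without 1 array also had fewer residual degrees of freedom, so its count of 0 calls adds little. The causes were not tested.

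Replicate numbers did not pair the arrays (r of replicate differences between genotypes from −0.16 to 0.20). As a block they brought the count of 2 in double_null against pRb_null to 0. Exchanging the numbers of pRb_null, a setting added after the data were seen, brought it to 1. The calls of Pnpla2, Me1, Elovl6, Ucp1 and Myh1 were lost with either block, in the moderated test, with quantile normalization and with only the groups compared. With array medians set to 0 those of Pnpla2, Elovl6 and Ucp1 in double_null against control were kept and the others lost, and with only probe sets of 1 symbol all were kept.

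With 1 array left out, the median in double_null against control ran from 0.59 to 1.21, and the counts at an unadjusted p under 0.05 from 3 to 6 there, from 4 to 7 in p53_null against control and from 1 to 2 in double_null against pRb_null. Among single values, 776 then kept sign and side of the threshold, 64 lost a call and 32 changed sign. Under the other settings 696 kept both, 45 lost a call, 5 gained one and 5 changed sign. The sign changes for pRb_null against control were those of Fabp4 by 1451263_a_at (−0.032 with quantile normalization, −0.10 with array medians set to 0) and Lpl by 1415904_at (−0.011 and −0.081), and for double_null against pRb_null that of Pparg (0.028 with array medians set to 0).

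The sign of these differences depended on which array was left out. Against control, pRb_null ran from −0.88 to 0.91 for Fabp4 by 1451263_a_at, from −0.024 to 1.53 for Pparg, from −0.25 to 0.32 for Lpl by 1415904_at and from −1.19 to 0.85 for Cebpa. Fabp4 by 1425809_at ran from −0.55 to 1.05 in p53_null against control. Double_null against control ran from −0.68 to 0.26 for Plin2, from −1.38 to 0.10 for Lepr, from −1.28 to 0.47 for Cfb, from −0.23 to 0.76 for Fabp4 by 1424155_at, from −0.20 to 1.03 for Fabp4 by 1451263_a_at and from −0.16 to 1.39 for Pparg. Double_null against pRb_null ran from −1.91 to 0.14 for Cebpa, from −0.040 to 0.21 for Cidec and from −0.35 to 0.068 for Pparg. For Fabp4 it ran from −0.11 to 0.32 by 1417023_a_at, from −0.76 to 0.23 by 1424155_at, from −1.16 to 0.20 by 1425809_at and from −0.50 to 1.30 by 1451263_a_at. Cebpa ran from −0.20 to 1.30 in double_null against p53_null and from −0.30 to 1.74 in the interaction, and Fabp4 by 1425809_at from −1.53 to 0.072 in the interaction. Signal over background is not known from scores, so its limit on these values cannot be given.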
